A study of Mus musculus with 37 samples.

Results

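The transcripts of Bace2 and of 7 other genes of amyloid precursor processing, Bace1, App, Aplp1, Aplp2, Psen2, Adam10 and Clu, were followed in cortical astrocytes of mice after brain injury. The 8 genes were found by their Ensembl identifiers among 21975 genes listed in both deposited tables, and were chosen with results of these same data known. Bace2 was chosen on its measured TPM in these libraries, and which contrast led to the choice is not recorded. Differences of Bace2 are therefore given as descriptions, and only the other 7 genes were tested. Astrocytes were taken with magnetic beads against the surface antigen ACSA-2 from the cortex on the side of surgery (ipsilateral) and from the opposite cortex (contralateral), 4 months after surgery that was either a controlled cortical impact (CCI) or a sham operation. Injured mice were split into those that developed post-traumatic epilepsy (PTE+) and those that did not (PTE-). The ipsilateral side had 5 sham, 10 PTE- and 4 PTE+ libraries, the contralateral side 5 sham, 9 PTE- and 4 PTE+, from 20 mice of which 17 gave both sides. All mice were wild type males, of the strain CD1 in the study's methods and CD31 in the labels. Sham mice also had a craniectomy and implanted electrodes, so sham is not an untouched cortex. Each library is the astrocyte fraction of 1 hemisphere of 1 mouse.

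The amyloid precursor protein, made from App, and its relatives made from Aplp1 and Aplp2 are membrane proteins that are cut outside the cell and then within the membrane. Adam10 encodes the main alpha-secretase of neurons, Bace1 the beta-secretase that starts amyloid-beta release, and Bace2 a close relative of Bace1 that can cut the precursor within the amyloid-beta stretch and is low in most of the brain. Psen2 is 1 of the alternative catalytic subunits of gamma-secretase, which makes the cut inside the membrane. Clu encodes clusterin, a secreted chaperone that binds amyloid-beta and is abundant in astrocytes.

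Bace2 and Bace1 are both aspartic proteases, and the coding bases around their catalytic aspartates show how alike the genes are. Each stretch holds 72 bases of coding sequence from GENCODE vM21 on GRCm38, 5′ to 3′, and the capitals mark the 4 codons from the aspartate onward. The first aspartate lies across exons 1 and 2, at chr16:97357087-97399690 on the plus strand for Bace2 and chr9:45839274-45852944 on the plus strand for Bace1, with the intron left out.
Bace2, first aspartate: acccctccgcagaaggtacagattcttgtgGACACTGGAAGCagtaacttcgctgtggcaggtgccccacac
Bace1, first aspartate: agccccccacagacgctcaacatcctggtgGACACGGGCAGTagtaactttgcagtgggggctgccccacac
The second lies across exons 5 and 6, at chr16:97413478-97415144 for Bace2 and chr9:45857243-45858465 for Bace1.
Bace2, second aspartate: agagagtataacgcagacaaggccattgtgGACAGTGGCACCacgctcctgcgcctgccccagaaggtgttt
Bace1, second aspartate: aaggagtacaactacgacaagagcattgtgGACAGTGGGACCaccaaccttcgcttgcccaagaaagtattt
The genes shared 54 of 72 bases around the first aspartate and 55 of 72 around the second, so the stretches are related but distinct in sequence.

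The substrate side is shown by the bases of App around the site where Bace1 cuts, in exon 14 at chr16:84965685-84965756 on the minus strand, where the capitals mark the 4 codons that straddle the cut.
App, beta-secretase site: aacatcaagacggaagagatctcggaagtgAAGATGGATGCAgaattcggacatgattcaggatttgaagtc
A second stretch, the cytoplasmic sorting signal that the 3 precursor genes share, links App with its relatives. It lies at chr16:84955334-84955399 for App, chr7:30435296-30435358 for Aplp1 and chr9:31150874-31150939 for Aplp2, each on the minus strand, and the capitals mark the 4 codons of its core.
App, sorting signal: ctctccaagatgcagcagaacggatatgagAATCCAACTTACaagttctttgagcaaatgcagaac
Aplp1, sorting signal: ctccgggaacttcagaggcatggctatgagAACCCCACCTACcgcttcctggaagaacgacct
Aplp2, sorting signal: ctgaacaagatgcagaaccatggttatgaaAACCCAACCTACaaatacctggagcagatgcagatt
App and Aplp2 shared 48 of 66 bases here.

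The libraries differed in quality and cell content in ways that bear on these genes. The ipsilateral library of PTE- mouse 9_14 had 10727 genes above 0, while the other 36 libraries had 15599 to 18534, so the main ipsilateral results are also given without it. All 10 astrocyte markers were above 0 in every library, and Atp1b2, which encodes the ACSA-2 antigen, ranged from 256 to 1226 TPM, a measure of transcript abundance scaled for gene length and library size. Markers of other cells were present, among them Mbp of oligodendrocytes at 114 to 3484 TPM, so the fractions held RNA of other cells. Of the 7 oligodendrocyte markers above 5 TPM in both groups, all 7 had negative differences after ipsilateral CCI and 2 passed the call, an unadjusted p under 0.05 with a fold of at least 1.2. Of all genes tested in that comparison, 1.62% passed. Opalin and Ermn exceeded 5 TPM in sham only, the group in which they were high, and are not counted. In such pooled cells, fewer cells of a type and less RNA per cell cannot be told apart. TPM keep no sequencing depth, so the counting error behind each value is unknown.

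The 8 genes covered a wide range of levels per transcript length. Clu was the fifth and seventh most abundant of the 21975 genes in the ipsilateral and contralateral libraries, with means of 10316 and 9424 TPM. Aplp1 followed with 966 and 1005 TPM, Aplp2 with 304 and 312 TPM and App with 115 and 121 TPM. The secretases were far lower, with Psen2 at 27.8 and 24.6 TPM, Adam10 at 18 and 19.2 TPM, Bace1 at 13.8 and 13.8 TPM and Bace2 at 10.9 and 7.22 TPM. The ranges of Clu, Aplp1, Aplp2, App and Psen2 did not overlap in the ipsilateral libraries, whereas each of the last 4 genes overlapped its neighbour on both sides. Bace2 was below Bace1 in 14 of 19 ipsilateral and 16 of 18 contralateral libraries.

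Bace2 stood higher in the injured than in the sham ipsilateral cortex. Bace2 (ENSMUSG00000040605, chr16:97356742-97442936, plus strand) was at 3.82, 2.84, 5.75, 3.17 and 2.77 TPM in the 5 ipsilateral sham libraries. In the 4 ipsilateral PTE+ libraries it was at 6.30, 12.4, 13.1 and 19.98 TPM, and in the 10 PTE- libraries the lowest, median and highest values were 0, 14.5 and 26.6 TPM. Of the 14 injured libraries 13 lay above every sham library, and the remaining one, mouse 9_14, was listed at 0. For this and the further counts of Bace2 libraries, the share of all genes that separate as far was not counted. Such counts describe a gene chosen on these values. The mean was 13.5 ± 7.29 TPM (SD, n = 14) after CCI and 3.67 ± 1.24 TPM (SD, n = 5) in sham, a ratio of 3.68. Bace2 passed the filter of 5 TPM through the injured group alone. It overlaps the processed pseudogene Gm49681 on the same strand, which is not among the listed genes, so shared reads cannot be told apart. On the log2(TPM + 1) scale, which understates changes of low genes, the difference was 1.38 with a standard error of 0.51, and 1.66 without mouse 9_14.

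Higher Bace2 levels were present in mice with and without epilepsy. All 4 PTE+ and 9 of 10 PTE- libraries lay above the highest sham value. Within injured mice the PTE+ and PTE- libraries overlapped, with means of 12.95 ± 5.597 TPM (SD, n = 4) and 13.7 ± 8.13 TPM (SD, n = 10). Their log2 difference was 0.19 with a standard error of 0.66, and it was -0.20 without mouse 9_14, so its sign hung on that library.

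In the contralateral cortex Bace2 did not stand higher after injury. The 5 sham libraries were at 7.58, 4.20, 8.41, 16.2 and 5.78 TPM, the 4 PTE+ libraries at 5.25, 4.78, 11.3 and 6.21 TPM, and the 9 PTE- libraries had a lowest value of 2.00, a median of 5.26 and a highest value of 12.1 TPM. None of the 13 injured libraries lay above every sham library and 4 lay below all of them. The log2 difference between CCI and sham was -0.30 with a standard error of 0.32, and -0.05 without sham mouse 9_10, whose level was the highest. That between PTE+ and PTE- was 0.13 with a standard error of 0.37, and -0.10 without PTE+ mouse 9_17.

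The sides of the same mouse were also compared. These differences reuse the ipsilateral values above, so they are a further description of Bace2 and not separate evidence. Bace2 was higher on the ipsilateral side in 11 of 12 injured mice, with a mean log2 difference of 0.95 (SD 0.91). It was lower on the ipsilateral side in 5 of 5 sham mice, with a mean of -0.93 (SD 0.65). In sham mice the contralateral level was thus the higher one, with means of 8.44 TPM there and 3.67 TPM ipsilaterally. This sham difference enters the comparison of the CCI effect between sides. The CCI effect was 1.68 larger on the log2 scale in the ipsilateral than in the contralateral cortex, with a standard error of 0.64, 1.95 without mouse 9_14, 1.88 with the mouse as a block and 1.40 without sham mouse 9_10.

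**Figure D1:**
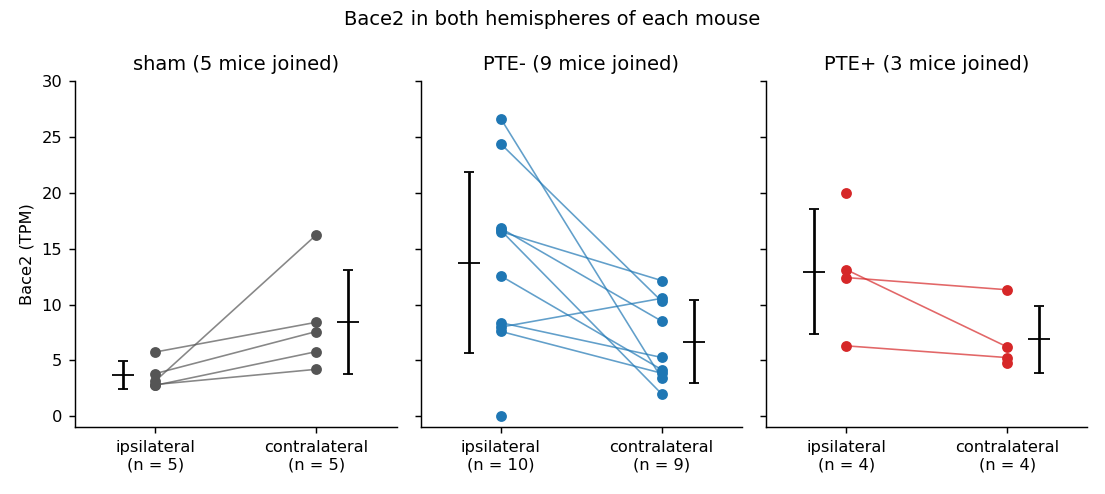
Bace2 in TPM (vertical axis) in the ipsilateral and contralateral libraries of sham, PTE- and PTE+ mice. Points are libraries, lines join both sides of a mouse, and crosses with bars are means ± SD. The lines of all 5 sham mice rise toward the contralateral side and those of 11 of 12 injured mice fall.

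The genes whose levels followed those of Bace2 most closely were listed by their correlation on log2(TPM + 1). By the smaller of the correlations over the 19 ipsilateral and 18 contralateral libraries, among 10064 genes, the closest were Fam216b (0.82), Lrrc74b (0.81), 1700012B09Rik (0.80), Tekt1 (0.80) and Togaram2 (0.80). Tekt1 encodes a tektin, a structural protein of the ciliary axoneme. Without mouse 9_14 the closest were Ccdc3 (0.79), Dnajb13 (0.77), Odc1 (0.76), Morn1 (0.75) and Slc38a1 (0.74), so the list depended on that library. Dnajb13 encodes a protein of the radial spokes of cilia, and Odc1 the enzyme that starts polyamine synthesis. All libraries of a side share dissection and bead isolation, and the correlations are descriptions.

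Ependymal cells, which line the ventricles and carry motile cilia, have the markers Foxj1, Tmem212, Ccdc153 and Dynlrb2. Their summed level correlated with Bace2 at r = 0.65 over 19 ipsilateral and r = 0.69 over 18 contralateral libraries, and at r = 0.57 on the ipsilateral side without mouse 9_14. The sum ranged from 24.8 to 333 TPM in ipsilateral sham, 65.6 to 567.5 TPM in PTE- and 119.6 to 269 TPM in PTE+ libraries, and from 119 to 462, 82.3 to 710 and 33.7 to 507 TPM on the contralateral side. Of the 3 markers above 5 TPM in both ipsilateral groups, all 3 had a positive difference between CCI and sham, with a median of 0.88, and 1 passed the call, Tmem212 with 1.08 (p = 0.0404, adjusted p = 1, limma). Without mouse 9_14 these 3 all passed, Tmem212 at 1.19, Ccdc153 at 1.02 and Dynlrb2 at 0.99. The share of all genes called in this comparison also rose, from 1.62% with that library to 3.83% without it. Foxj1 passed the filter only through the injured group, with means of 4.37 TPM in sham and 9.89 TPM after CCI, and its test is not used. On the contralateral side all 4 differences were negative, with a median of -0.17 and 0 calls. The CCI effect on the 4 markers was larger on the ipsilateral side, with a median of 1.11 and 4 of 4 positive, the same direction as for Bace2 on both sides. Between ipsilateral PTE+ and PTE- the markers had negative differences, 4 of 4 with 0 calls, and without mouse 9_14 Tmem212 and Ccdc153 were each lower in PTE+ by a log2 difference of -0.94. Mean TPM in ipsilateral sham, PTE- and PTE+ libraries was 57.1, 115 and 61.4 for Tmem212 and 62.4, 114 and 64.2 for Ccdc153. For Dynlrb2 it was 53.9, 95.8 and 73.8, for Foxj1 4.37, 10.7 and 7.89, and for Bace2 3.67, 13.7 and 12.95. None of the 4 markers was at 0 in any library. In injured mice the sum was higher on the ipsilateral side in 8 of 12, and Bace2 was higher there in all 8 of these and in 3 of the other 4. In sham mice the sum was higher on that side in 2 of 5, and Bace2 was higher there in 0 of these 2. The part of ependymal cells in the Bace2 difference was not tested.

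**Figure D2:**
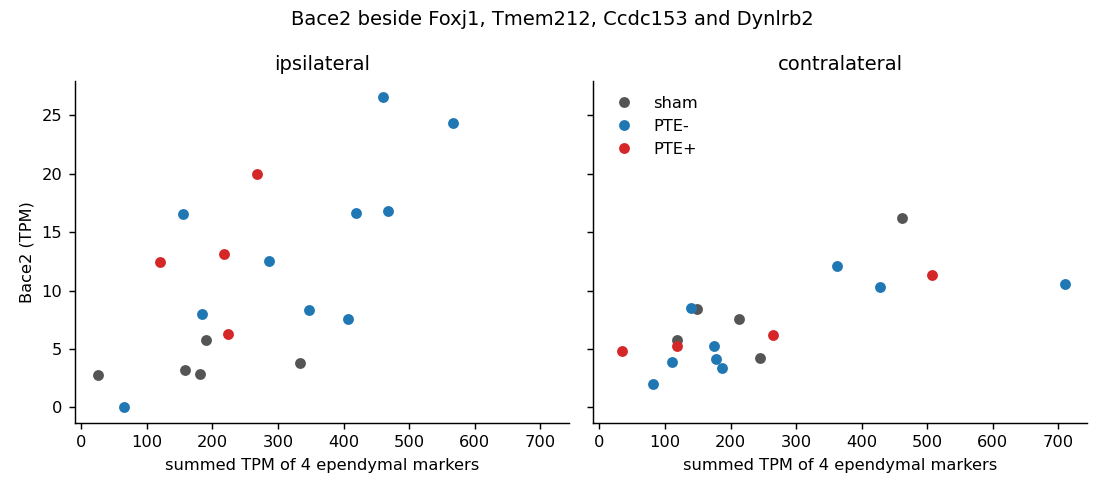
Bace2 in TPM (vertical axis) against the summed TPM of 4 ependymal markers (horizontal axis), for the 19 ipsilateral and 18 contralateral libraries, coloured by group. Libraries with a higher marker sum tended to hold more Bace2 on both sides, while the ipsilateral sham libraries stayed at or below 5.75 TPM up to a marker sum of 333 TPM.

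None of the other 7 genes passed the call in any of the 4 comparisons within a hemisphere. Over all genes tested that call was met by 1.62% between ipsilateral CCI and sham, 0.573% between ipsilateral PTE+ and PTE-, 4.05% between contralateral CCI and sham and 2.79% between contralateral PTE+ and PTE-, and 0 calls among 7 genes stand beside these shares. Single libraries moved the shares. Without mouse 9_14 the first became 3.83% and the second 1.89%. Without sham mouse 9_11 the first became 4%, while the second fell to 0.22% on leaving out PTE+ mouse 9_17 and came to 1.15% on leaving out 8_10. The third was 2.21%, 8.34% and 6.83% on leaving out sham mice 9_11, 9_9 and 8_16 and 6.32% on leaving out 9_17 of the PTE+ group, and the fourth reached 4.66% without PTE+ mouse 9_18. At an adjusted p (Benjamini-Hochberg) under 0.05 no gene of the whole table passed in these 4 comparisons with limma as fitted on all libraries, while 195, 63, 472 and 303 genes had an unadjusted p under 0.05. In an exact permutation test, two-sided, of each of the 7 genes in each comparison, none of 28 p-values was under 0.05 and the smallest was 0.088. The smallest p that the arrangements allow was 8.6e-05 between ipsilateral CCI and sham and 0.0014 between contralateral PTE+ and PTE-. Counts of libraries or mice above or below another group are given below for single genes. No share over all genes was counted for them, and they are descriptions.

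**Figure D3:**
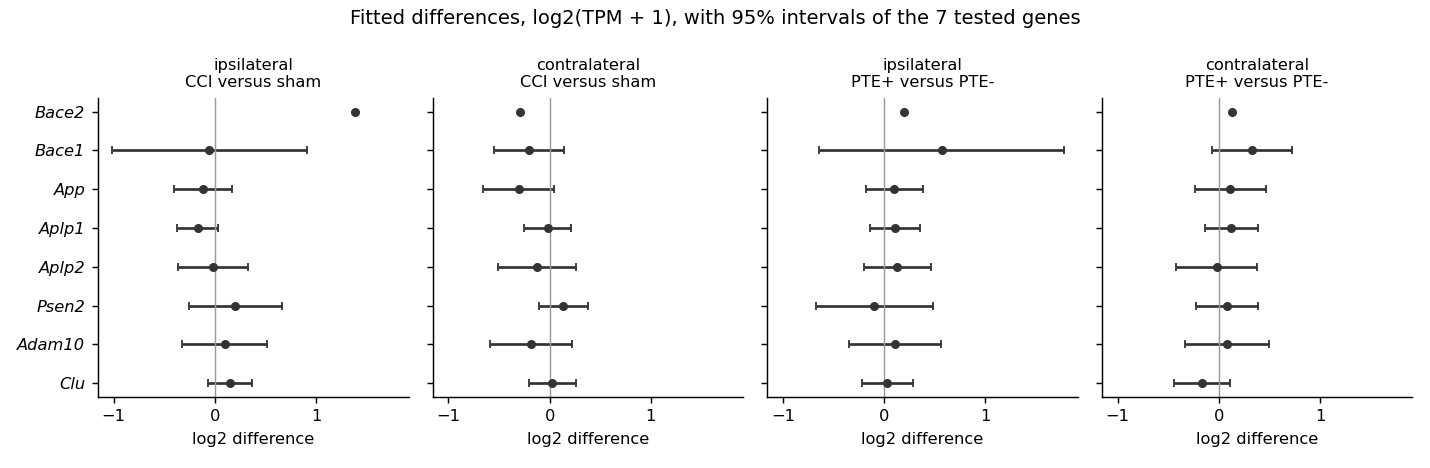
Fitted log2 differences (points) of the 8 genes in the 4 comparisons within a hemisphere, on the log2(TPM + 1) scale, with 95% intervals (bars) for the 7 tested genes. Each of the 28 intervals spans 0, and Bace2, which was chosen on these values, is drawn as points at 1.38, -0.30, 0.19 and 0.13 without intervals.

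Of the substrates, App (ENSMUSG00000022892, chr16:84949685-85173766, minus strand) had the largest difference on the contralateral side. Its 5 contralateral sham libraries were at 107, 93.5, 142, 213 and 159 TPM and the 13 injured libraries had a lowest value of 89.5, a median of 102 and a highest of 194 TPM. Of these, 12 lay below the sham median, but 1 lay below every sham library. The log2 difference was -0.31 with a standard error of 0.17 (p = 0.0826, adjusted p = 0.978, limma). It passed the call at -0.37 without PTE+ mouse 9_17, whose 193.6 TPM stood apart from 96.1 to 102 TPM in the other PTE+ libraries. It also passed at -0.40 without sham mouse 8_15 and at -0.44 without sham mouse 8_16, and was -0.15 without sham mouse 9_10, which held the highest level.

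App on the ipsilateral side was at 78.0, 159.6, 118, 123 and 141 TPM in sham and at 78.5 to 134 TPM with a median of 113 TPM after CCI. The groups overlapped, with a log2 difference of -0.12 (p = 0.401). PTE+ and PTE- differed by 0.10 ipsilaterally and 0.11 contralaterally, with p = 0.453 and p = 0.5. App overlaps antisense genes on the opposite strand, and the library kit does not mark strand, so their reads cannot be told apart from those of App.

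Aplp1 (ENSMUSG00000006651, chr7:30434982-30445535, minus strand), a precursor relative found mainly in the nervous system, lay below the ipsilateral sham median in all 14 injured libraries. Sham libraries were at 909, 1002, 1137, 1086 and 1104 TPM, and injured libraries ran from 673 to 1063 TPM with a median of 986 TPM. Of the 14, 6 were below every sham library. How many of all genes reach such counts was not examined, so they are no result about Aplp1. The log2 difference was -0.17 with a 95% interval of -0.37 to 0.03 (p = 0.0988, adjusted p = 1, limma), a fold under 1.2. Contralaterally the groups overlapped, with a log2 difference of -0.02 (p = 0.864).

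Aplp2 (ENSMUSG00000031996, chr9:31149557-31211815, minus strand), the broadly expressed relative, showed no difference beyond the spread. Its ipsilateral sham values of 205, 238, 278, 414 and 429 TPM enclosed 13 of the 14 injured libraries, which ran from 203 to 375 TPM. Its log2 differences were -0.02 for ipsilateral CCI, -0.12 for contralateral CCI, 0.13 for ipsilateral PTE+ and -0.02 for contralateral PTE+, with p from 0.417 to 0.914.

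**Figure D4:**
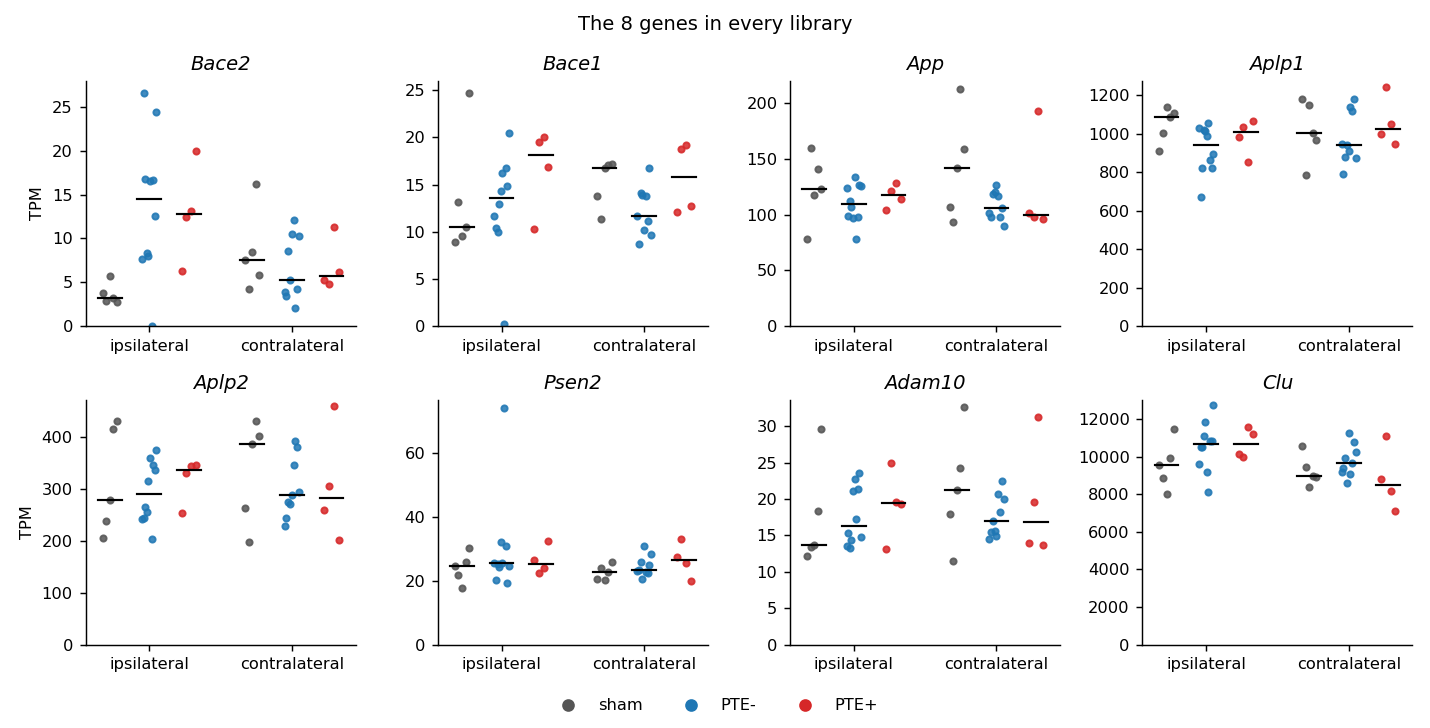
TPM (vertical axes, from 0) of the 8 genes in each library, by hemisphere and group, with black lines at group medians. Only the ipsilateral panel of Bace2 shows nearly all injured libraries above sham, and the ipsilateral PTE- point at 0.23 TPM in Bace1 and that at 74.1 TPM in Psen2 are mouse 9_14.

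Bace1 (ENSMUSG00000032086, chr9:45838580-45864399, plus strand) did not pass the call between ipsilateral CCI and sham. It was at 8.95, 13.1, 9.59, 10.5 and 24.8 TPM in ipsilateral sham libraries, and at 0.23, 14.5 and 20.5 TPM as lowest, median and highest of the injured. The log2 difference was -0.06 (standard error 0.46, p = 0.906), with a 95% interval of -1.02 to 0.91, and was 0.21 without mouse 9_14. Of the 14 injured libraries 10 lay above the sham median and 0 above every sham library. Sham mouse 9_11, at 24.8 TPM, stood apart from the other sham libraries at 8.95 to 13.1 TPM. With array weights Bace1 passed the call as higher after CCI, beside 8.08% of all genes tested. In the contralateral cortex the 4 PTE+ libraries, at 12.04, 18.8, 19.2 and 12.7 TPM, all lay above the PTE- median of 11.7 TPM, and the log2 difference was 0.33 (standard error 0.19, p = 0.0933, adjusted p = 0.999, limma). It passed the call at 0.44 without PTE+ mouse 8_10. In that comparison all 7 endothelial and all 7 neuronal markers tested had positive differences, with medians of 0.73 and 0.64. Of these, 2 endothelial and 1 neuronal marker passed the call, beside 2.79% of all genes tested. Over the 18 contralateral libraries, however, Bace1 had r = 0.02 with the summed endothelial and r = 0.12 with the summed neuronal markers. With the summed markers of oligodendrocyte precursors it had r = 0.68. The part of any of these cells in the Bace1 difference was not tested. Bace1 overlaps Rnf214 on the opposite strand, which the counting cannot separate where the genes share bases.

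Psen2 (ENSMUSG00000010609, chr1:180227004-180263438, minus strand) was at 24.6, 21.7, 17.8, 25.8 and 30.2 TPM in ipsilateral sham and at 19.2 to 32.4 TPM after CCI without mouse 9_14, which held 74.1 TPM. The log2 difference was 0.20 (p = 0.366) with that library and 0.09 without it. On the contralateral side 5 of 13 injured libraries lay above every sham library, a count without a share over all genes beside it. The log2 difference there was 0.14 (p = 0.262). Adam10 (ENSMUSG00000054693, chr9:70678997-70780229, plus strand) was at 12.2, 13.4, 13.7, 18.4 and 29.6 TPM in ipsilateral sham and 13.2 to 24.9 TPM after CCI. Its log2 differences were 0.10 and -0.19 for ipsilateral and contralateral CCI, with p = 0.633 and p = 0.351. The groups overlapped for both genes in all 4 comparisons. Psen2 overlaps the antisense gene Gm31728 on the opposite strand, whose reads cannot be told apart from its own.

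Clu (ENSMUSG00000022037, chr14:65968483-65981547, plus strand) did not pass the call in any comparison. It was higher on the ipsilateral side in 12 of 12 injured mice, by 0.0066 to 0.70 on the log2 scale, and in 2 of 5 sham mice. The share of all genes with such counts was not determined. Over all injured libraries the difference between sides was 0.16 with a standard error of 0.07 (p = 0.0363, adjusted p = 0.973, limma), a fold of 1.12 that stayed under the threshold of 1.2, and 0.19 without mouse 9_14 (p = 0.0123, limma). With the mouse as a block it was 0.20, a fold of 1.15 (p = 0.00307, adjusted p = 0.23, limma). The CCI effect was not shown to differ between sides, at 0.12 with a 95% interval of -0.17 to 0.41 (p = 0.395). Ipsilateral sham libraries were at 9546, 8846, 7989, 9941 and 11486 TPM and injured libraries at 8114 to 12758 TPM with a median of 10692 TPM, of which 3 lay above every sham library.

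None of the 7 genes passed the call in the 3 comparisons between sides either, against 2.59% of all genes for the sides of injured mice, 1.3% for the CCI effect and 0.112% for the PTE+ effect. Without mouse 9_14 these shares were 3.22%, 2.52% and 0.282%, the share for the CCI effect was 0.479% without sham mouse 9_10 and 1.98% without 9_11, and that for the PTE+ effect lay between 0.0751% and 0.259% when PTE+ mice were left out in turn. In the first of these comparisons, 4 genes of the whole table passed at an adjusted p under 0.05, Gfap among them. These fits took both sides of a mouse as separate libraries, and with the mouse as a block 15 genes passed at that level. Gfap, the intermediate filament of reactive astrocytes, was higher in ipsilateral CCI than sham by 1.18 on the log2 scale, with means of 653 ± 241 TPM (SD, n = 14) and 273 ± 74.0 TPM (SD, n = 5). Its adjusted p there was 0.909, and 0.0212 without mouse 9_14.

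Genes around the 8 were read from 5 lists of 64 genes in all, chosen with results of these data known. The single calls among them stand beside 1.62% of all genes called between ipsilateral CCI and sham and 2.59% between the sides, and are values of those genes, not of the lists. Of gamma-secretase subunits 7 of 7 were tested and 0 passed the call in any comparison, with a median log2 difference of 0.07 between ipsilateral CCI and sham beside -0.01 for all genes tested. Aph1b and Aph1c in that list are nearly identical and their split is uncertain. Of 8 tested alpha-secretases and Adam10 partners 1 rose after ipsilateral CCI, Tspan15, a tetraspanin that escorts Adam10, by 0.37 (p = 0.0103, adjusted p = 1, limma). Its sham libraries held 200 to 369 TPM and its injured libraries 286 to 511 TPM, so the groups overlapped, and the difference was 0.36 without mouse 9_14. Of 18 tested adaptor and sorting genes 1 rose there, Itm2c, a BRI family protein that binds the precursor, by 0.30 (p = 0.00436, adjusted p = 1, limma). Its mean was 1035 ± 162 TPM (SD, n = 5) in sham and 1268 ± 131 TPM (SD, n = 14) after CCI, and the difference was 0.29 without mouse 9_14. Its CCI effect was larger on the ipsilateral side by 0.28 (p = 0.0336, adjusted p = 1, limma without the mouse as a block).

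Of the genes that bind, take up or break down amyloid-beta, 11 were above 5 TPM in both ipsilateral groups, and 0 of these passed between CCI and sham, with 10 positive differences and a median of 0.09. Without mouse 9_14 Ece2, an endothelin-converting enzyme, was called there at 0.35 and between the sides at 0.40. A2m, a protease inhibitor of the circulation, had means of 4.48 TPM in ipsilateral sham, 9.48 TPM in ipsilateral CCI and 4.22 TPM in contralateral CCI, so it passed the filter only where it was high and its test is not used. Ttr, a carrier of the choroid plexus in this list that also passed only through the injured ipsilateral group, ran from 0 to 771 TPM in ipsilateral PTE- libraries. Of other substrates of the BACE proteases above 5 TPM in both groups compared, 0 of 6 passed between ipsilateral CCI and sham. Between the sides 1 of 5 passed, Sez6, higher ipsilaterally by 0.62 (p = 0.0261, adjusted p = 0.973, limma) and by 0.53 without mouse 9_14. These fits between the sides did not use the mouse as a block. None of the 5 lists had a called gene between PTE+ and PTE- on either side, or between contralateral CCI and sham.

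Several of the genes moved with the first digit of the mouse names, 8 or 9, whose meaning the labels do not give. Aplp2 was at 205 to 265 TPM in 7 ipsilateral libraries of mice with names in 8 and at 278 to 429 TPM in 11 of mice with names in 9, leaving out mouse 9_14, with no overlap, as held for 1.96% of genes. The log2 difference was 0.53, beside a median of 0.19 over all genes. Adam10 differed by 0.55 and Bace1 by 0.52 on that side, and 9 of the 11 lay above every library of names in 8 for each. Differences as large were held by 15.5% of all genes for Aplp2, 13.7% for Adam10 and 16% for Bace1, so such shifts were common in the table. On the contralateral side Aplp2 differed by 0.46 and Adam10 by 0.43, with 7 of 10 above, Bace2 by 0.51 and App by 0.30, each with 5 of 10 above. As large a difference was held there by 9.21% of genes for Aplp2, 11.8% for Adam10, 6.79% for Bace2 and 26.5% for App. Both digits occur in every group, and with the digit as a covariate no gene of the 7 became a call. Between ipsilateral CCI and sham Bace2 differed by 1.52 in mice with names in 8 alone and by 1.29 in those with names in 9. The contralateral difference of App, however, was 0.09 in names in 8 and -0.56 in names in 9. On each side, names in 8 had only 2 sham libraries and names in 9 had 3.

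Aplp2 and Adam10 rose and fell together over libraries, with r = 0.89 over 18 contralateral and r = 0.73 over 19 ipsilateral libraries, and each also with Bace1, at r = 0.61 and r = 0.68 contralaterally. Ipsilaterally Bace1 had r = 0.65 with Aplp2 and r = 0.34 with Adam10, and r = 0.72 and r = 0.76 without mouse 9_14, so the latter depended on that library. Bace2 and Bace1 had r = 0.31 contralaterally, and r = 0.66 ipsilaterally that fell to r = 0.23 without mouse 9_14. The summed astrocyte markers had r = 0.79 with Aplp2 and r = 0.82 with Bace1 over 18 ipsilateral libraries without mouse 9_14, and r = 0.32 and r = 0.11 contralaterally. The libraries share the difference between name digits, and the correlations are descriptions.

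**Figure D5:**
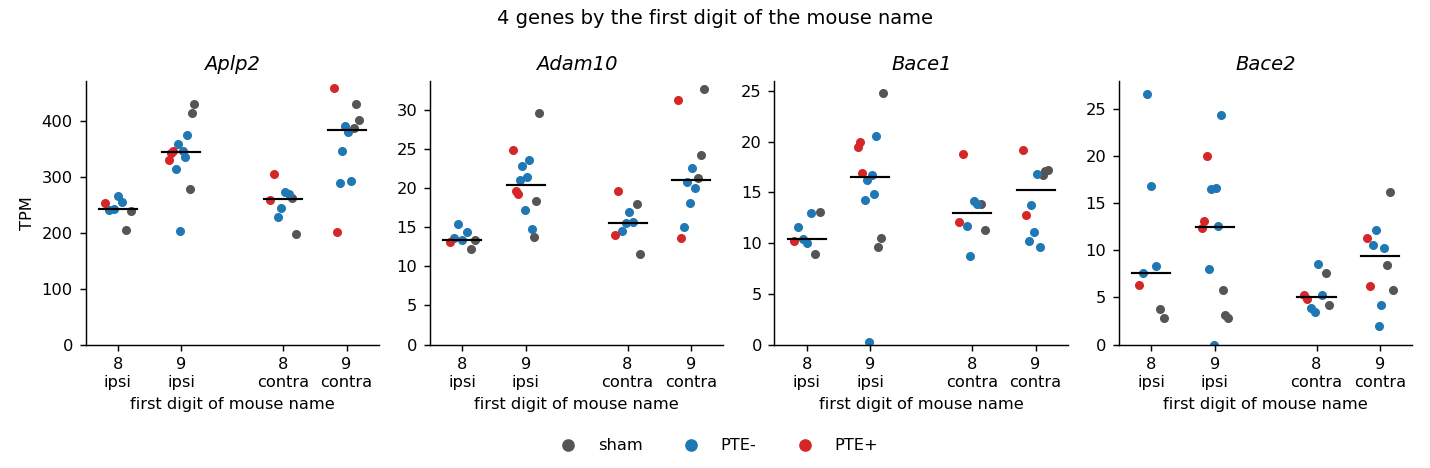
TPM (vertical axes, from 0) of Aplp2, Adam10, Bace1 and Bace2 in each library, by side and by the first digit of the mouse name, coloured by group, with black lines at medians. The ipsilateral Aplp2 libraries of names in 9, other than mouse 9_14, all lie above the 265 TPM reached by names in 8.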

How the data were processed

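RNA of ACSA-2 bead-isolated cortical astrocytes was prepared with SMART-Seq v4, trimmed with Trim Galore 0.6.4, and mapped to mm10 with Bowtie2 2.4.1 within RSEM 1.2.28, as the study's methods and the submitters' notes state. The authors deposited TPM per Ensembl gene, in 1 table per hemisphere; the annotation release used by RSEM is not given in the sources used here. The authors' own comparisons used DESeq2 1.36.0 on counts. They state that 1 PTE+ and 1 PTE- animal were excluded. Their numbers of PTE+ and PTE- libraries on each side nevertheless equal those used here, and the labels name 15 injured mice. TPM keep no depth, so no counting intervals are given.

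log2(TPM + 1) of all genes with a mean above 5 TPM in a group was fitted with limma 3.58.1 (R 4.3.3), with a variance trend. A call is an unadjusted p under 0.05 and a fold of at least 1.2, with Benjamini-Hochberg adjustment over all genes tested, and intervals are at 95%. Comparisons were CCI versus sham and PTE+ versus PTE- in each hemisphere, the sides of injured mice, and both effects between sides. The hemispheres pair by mouse, since the labels carry its name. The main fits between sides did not use this pairing, and the mouse as a block was an alternative. After subtraction of group means, both sides of a mouse correlated over 10065 genes at a median r of 0.42, between 0.043 and 0.691, and 16 of 17 mice exceeded 0.1. The libraries are separate mice within a group.

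The members and gene lists were chosen with earlier results of these data known. Named are the 8 members, genes of the lists that met the call, up to 4 per list and comparison, and the 5 genes most like Bace2. Atp1b2, Mbp, Gfap, Ttr, Ece2, Opalin, Ermn, the ependymal markers and Rnf214 were named after their values were seen. Positions, overlaps and sequences are from GENCODE vM21 on GRCm38, the build of mm10, which gave symbols to 21856 identifiers and none to 119. Alternatives were another pseudocount of 0.1, other filters, quantile normalization, median centring, array weights, the name digit as a covariate, other thresholds, the replicate block, and leaving out libraries. List counts over genes above 5 TPM in both groups, and list genes without mouse 9_14, were added after seeing the data. Tables, exact tests and figures were made in Python 3.11.15 (scipy 1.17.1; numpy 2.4.6; matplotlib 3.10.9; pandas 2.3.3). The fits were tested on simulated data.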

Additional observations from a re-analysis of the deposited data

Results flagged for a closer look

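In 48 sets of 4 to 10 values, 1 gene in 1 group each, 4 held a library farther from the others than Dixon's 95% critical value allows, where chance gives about 5%. App in contralateral PTE+ mouse 9_17 was at 193.58 TPM, while the other 3 libraries were at 96.1 to 102 TPM. Bace1 in ipsilateral sham mouse 9_11 was at 24.75 TPM, while the others were at 8.95 to 13.1 TPM. In ipsilateral PTE- mouse 9_14, Bace1 was at 0.23 TPM and Psen2 at 74.11 TPM, while the others were at 9.99 to 20.5 TPM and 19.2 to 32.3 TPM, and this is the library with the fewest genes above 0.

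Bace2 moved in opposite directions between the sides in sham and PTE+ mice. It was lower on the ipsilateral side in 5 of 5 sham mice, with a mean log2 difference of -0.93, and higher on that side in 3 of 3 PTE+ mice, with a mean of 0.44. PTE- mice moved as PTE+ mice did, higher on the ipsilateral side in 8 of 9 with a mean of 1.13, so the contrast is not particular to PTE+. This difference was not tested, and the share of all genes that moved in this way was not counted.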

How the results depend on the processing

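The number of the 7 genes called, 0 in every comparison as reported, changed under few of the alternatives. With array weights it became 2 between ipsilateral CCI and sham (Bace1 at 0.47, where it was -0.06, and Clu at 0.28), 1 between contralateral CCI and sham (App at -0.43) and 3 for the CCI effect between sides (Bace1, App and Adam10). For contralateral CCI it was also 1 with names in 9 only and 1 with PTE- mice only against sham, App each time at -0.56 and -0.34. Leaving out single sham or PTE+ mice gave 0 to 1 for ipsilateral CCI (App at -0.27 without sham mouse 8_15), 0 to 1 for contralateral CCI and 0 to 1 for contralateral PTE+ (Bace1 at 0.44 without mouse 8_10, Clu at -0.29 without mouse 8_17). Of the PTE- mice only 9_14 was left out singly, on the ipsilateral side. With the mouse as replicate block the paired fits called 0 of the 7 genes, while the calls over all genes rose from 2.59% to 4.61% between sides, from 1.3% to 6.2% for the CCI effect and from 0.112% to 2.63% for the PTE+ effect. Causes were not tested. The ipsilateral CCI difference of Bace2 stayed between 1.29 and 1.88 over the alternatives that were run, and leaving out mouse 9_14 raised the genes called from 169 to 399. With median centring the share of calls that were higher went from 13.3% to 62.2% for contralateral CCI and from 95% to 50.4% for the CCI effect between sides, and the medians of all genes from -0.07 to 0.03 and from 0.05 to -0.08 on the log2 scale. TPM limit precision, since depth is unknown.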
